A study of Sus scrofa with 24 samples.

Results

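The comparison described here is that of pigs fed an atherogenic diet with resveratrol (AD-RES) against pigs fed the same diet alone (AD). Its members were the 8 arrays whose diet label is AD-RES (4 animals) or AD (4 animals), of 24 arrays in 6 groups of 4, and each group held 2 females and 2 males. AD-RES animals ate, for 4 months, a diet enriched in coconut oil (10%), beef tallow (5.5%) and cholic acid (1%), with a supplement of 18 mg of resveratrol per 70 kg of body weight. AD animals ate that fatty diet for the same time with no supplement, so that both groups carried the dietary load and differed by label in resveratrol only. The other 16 arrays (standard chow, chow with resveratrol-enriched grape extract, and the fatty diet with grape extract or with resveratrol-enriched grape extract) entered only as a source of the spread between animals and as side values. RNA came from peripheral blood mononuclear cells, the lymphocytes and monocytes that a density gradient separates from most granulocytes and red cells, and each array held 1 animal.

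Resveratrol is a plant polyphenol found in grapes. In cell culture and in rodents it has been studied for action on the deacetylase SIRT1, the energy sensor AMPK, the NRF2 pathway of antioxidant enzymes and the NF-kB pathway of inflammatory genes. Monocytes among these blood cells enter the artery wall in atherosclerosis, where they become macrophages that store cholesterol.

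The arrays gave 1 intensity for each probe set, and all levels and differences below are on the log2 scale, so that a difference of 1 is 2-fold. A difference is AD-RES minus AD. Array medians lay between 39.9 and 41.2 intensity units over the 8 arrays. A gene's level cannot be set against that of another gene, and in mixed blood cells fewer cells of a type and less RNA per cell cannot be told apart. Markers of the labelled cells were measured in both groups: the T cell receptor chain gene CD3E averaged 10.09 ± 0.16 in AD-RES and 10.19 ± 0.36 in AD (SD, n = 4 each), and the monocyte scavenger receptor gene CD163 averaged 8.53 ± 0.80 in AD-RES and 9.07 ± 0.40 in AD. CD3E was slightly lower in AD-RES, whereas 11 of 14 T cell markers were higher, as described below. The 3'/5' ratio of 3 control transcripts, a measure of RNA integrity given as a log2 difference, was 1.92 ± 0.234 in AD-RES and 2.19 ± 0.867 in AD (SD, n = 4 each; exact permutation test, two-sided p = 0.543).

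The arrays of AD-RES animals 3 and 4, which are the males of that group, stood apart in how few probe sets differed more than 2-fold. Animals are numbered 1 and 2 for the females and 3 and 4 for the males of each group. Only 7 of 17999 probe sets differed more than 2-fold between these arrays, against 86 in the next closest of 276 pairs of arrays and a median of 595. Their correlation over probe sets was 0.9949, against 0.9936 in the next closest pair, the males fed the fatty diet with grape extract. The median absolute difference was 0.126 in the AD-RES pair and 0.125 in that next pair, so by this measure the AD-RES pair did not stand apart. The labels call AD-RES animals 3 and 4 separate animals, and they were kept as such. Whether both arrays hold RNA of 1 animal could not be settled from the values; if they did, every male value below would rest on 1 AD-RES animal. Averaging these arrays into 1 leaves a male difference as it is and widens its error, so the calls and the main male values are also given with the averaged pair.

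**Figure D1:**
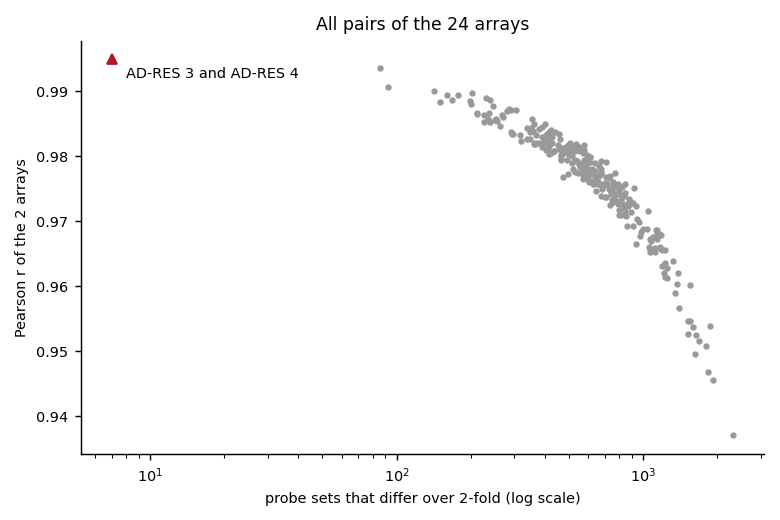
Each point is a pair of the 24 arrays; the horizontal axis (log scale) counts probe sets that differ more than 2-fold and the vertical axis is Pearson's r over probe sets. The pair of AD-RES males (red triangle) lies apart at 7 probe sets, and the next pair is at 86.

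With both sexes together no gene passed the test. Of 17999 probe sets, 0 (0%) were called at a limma adjusted p under 0.05, and the smallest adjusted p was 0.98. At an unadjusted p under 0.05 there were 801 probe sets, 324 higher and 477 lower in AD-RES, where 899.95 would be found if no gene differed. For 93.4% of probe sets the 95% confidence limits excluded a 2-fold difference in either direction. Differences beyond 2-fold were estimated for 41 probe sets, 19 higher and 22 lower. Among the 6033 named genes, each at its probe set with the highest mean, 1.59% were higher and 3.63% lower at an unadjusted p under 0.05, and the 2 groups did not overlap in 1.13% of genes (higher) and 2.04% (lower).

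**Figure D2:**
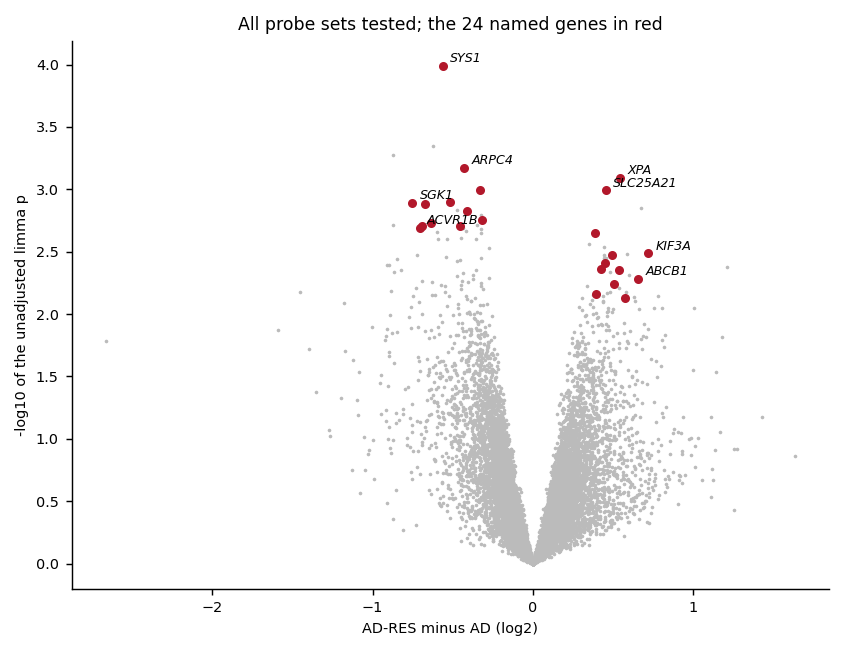
Each grey point is 1 of 17999 probe sets, with its AD-RES minus AD difference (log2) on the horizontal axis and -log10 of its unadjusted limma p on the vertical axis. The 24 named genes, 12 in each direction (red), lie on the edge of a continuous cloud, and 0 probe sets passed the adjusted threshold.

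The 24 genes that follow are the 12 lower and the 12 higher in AD-RES with the smallest p in their direction, among probe sets with 1 gene symbol. Each has a limma adjusted p of 0.98 in the comparison of both sexes, so their values describe these 8 animals. SYS1, which helps tether membrane traffic at the Golgi, had the smallest p. It stood at 6.99, 6.93, 7.08 and 6.84 in AD-RES, against 7.36, 7.46, 7.57 and 7.71 in AD. Every AD-RES animal was below every AD animal, and the difference was -0.56 ± 0.12 (SE; 0.677-fold). ARPC4, a subunit of the Arp2/3 complex that branches actin filaments, was at 8.94, 8.82, 9.07 and 8.98 in AD-RES, against 9.63, 9.19, 9.40 and 9.31 in AD (difference -0.43 ± 0.11). The groups did not overlap at this probe set either, while a second ARPC4 probe set, at -0.30, did overlap.

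SGK1 and FKBP5 are both textbook targets of the glucocorticoid receptor: SGK1 is a kinase that controls ion transport and FKBP5 a co-chaperone that restrains the receptor itself. SGK1 was at 10.83, 10.86, 11.46 and 11.31 in AD-RES, against 11.70, 11.83, 12.01 and 11.93 in AD (difference -0.75 ± 0.20). FKBP5 was at 4.60, 5.33, 5.19 and 5.13 in AD-RES, against 5.83, 5.98, 5.59 and 5.55 in AD (difference -0.67 ± 0.18). At these probe sets both genes separated the groups in all 8 animals. The estimated difference was larger in females (-0.92 and -0.94) than in males (-0.58 and -0.41), though the difference between the sexes did not pass (limma adjusted p = 0.776 and 0.598). A second, much brighter FKBP5 probe set (mean over all arrays 8.915, against 5.131) gave -0.51 with overlapping groups. At the dimmer probe set FKBP5 averaged, in the other groups, between 4.88 in chow-fed pigs and 5.10 in chow-fed pigs with the enriched extract. There AD, at 5.74, had the highest mean of all 6 groups. SGK1 averaged 11.12 in AD-RES, the lowest of the 6 groups, and 11.87 in AD, the highest.

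UCP2, a carrier of the inner mitochondrial membrane, was at 7.40, 6.81, 7.55 and 7.51 in AD-RES, against 8.29, 7.76, 7.91 and 7.86 in AD (difference -0.64 ± 0.18). ACVR1B, a type I receptor for activin, was at 6.18, 6.52, 6.93 and 6.88 in AD-RES, against 7.60, 7.68, 6.75 and 7.30 in AD (difference -0.71 ± 0.20). For UCP2 no AD-RES animal reached the lowest AD animal, whereas the males overlapped for ACVR1B. GNAI2, the inhibitory G protein subunit through which chemokine receptors signal, differed by -0.41 ± 0.11 and ARHGDIA by -0.52 ± 0.14. The other 4 lower genes were FAM129A at -0.69, PLOD3, a collagen-modifying enzyme, at -0.46, C7H6orf106 at -0.33 and LAMB2, a laminin chain, at -0.32. For C7H6orf106 other, brighter probe sets gave 0.37 and -0.18, and for FAM129A another gave -0.21, the mean of its probe sets being -0.451.

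Among the 12 genes higher in AD-RES, XPA, which verifies damage in nucleotide excision repair, had the smallest p. It was at 4.96, 4.87, 4.65 and 5.06 in AD-RES, against 4.60, 4.68, 4.10 and 3.97 in AD (difference 0.54 ± 0.14; 1.46-fold). The groups overlapped by 1 AD female, and the AD mean of 4.34 was the lowest of the 6 groups, the other means lying between 4.70 and 4.90. SLC25A21, a mitochondrial carrier of oxoadipate, was at 4.33, 4.42, 4.22 and 4.59 in AD-RES, against 3.85, 3.86, 3.99 and 4.03 in AD (difference 0.46 ± 0.12). KIF3A, a motor of transport along cilia, was at 5.47, 4.65, 4.71 and 4.92 in AD-RES, against 4.35, 4.41, 4.14 and 3.97 in AD (difference 0.72 ± 0.22), and its other probe sets gave 0.23 and 0.28. Both genes separated the groups at the probe sets named.

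ABCB1, the drug efflux pump P-glycoprotein, was at 6.44, 7.01, 6.31 and 6.49 in AD-RES, against 5.81, 5.40, 6.23 and 6.18 in AD (difference 0.66 ± 0.21). The groups did not overlap, and the females differed by 1.12 where the males differed by 0.19. The remaining higher genes were TMEM68 at 0.50, ACTR6, an actin-related protein of chromatin remodelling, at 0.50, MPZL1 at 0.45, ZNF568 at 0.42, FKBP14, a folding enzyme of the endoplasmic reticulum, at 0.54, GEMIN6, of the complex that assembles splicing particles, at 0.39, SDE2 at 0.57 and DSPP at 0.40. Several of these genes had further probe sets, which gave 0.58 for FKBP14, 0.93 and 0.20 for SDE2, 0.22 for ACTR6 and 0.11 for TMEM68. Those of FKBP14, ACTR6 and TMEM68 were brighter than the probe sets named, and those of SDE2 were dimmer. The mean over its probe sets was 0.307 for TMEM68. DSPP differed by 0.81 in males and by -0.02 in females. Several higher genes were dim. Means over all arrays were 3.69 for DSPP, 3.75 for TMEM68, 3.82 for FKBP14, 4.08 for SLC25A21, 4.23 for ZNF568 and 4.25 for MPZL1. Of the lower genes, LAMB2 was about as dim, at 4.30. Probe sets with means under 3.57 had been left out as dimmest. In AD, TMEM68 averaged 3.36 and DSPP 3.47, both under that cut.

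**Figure D3:**
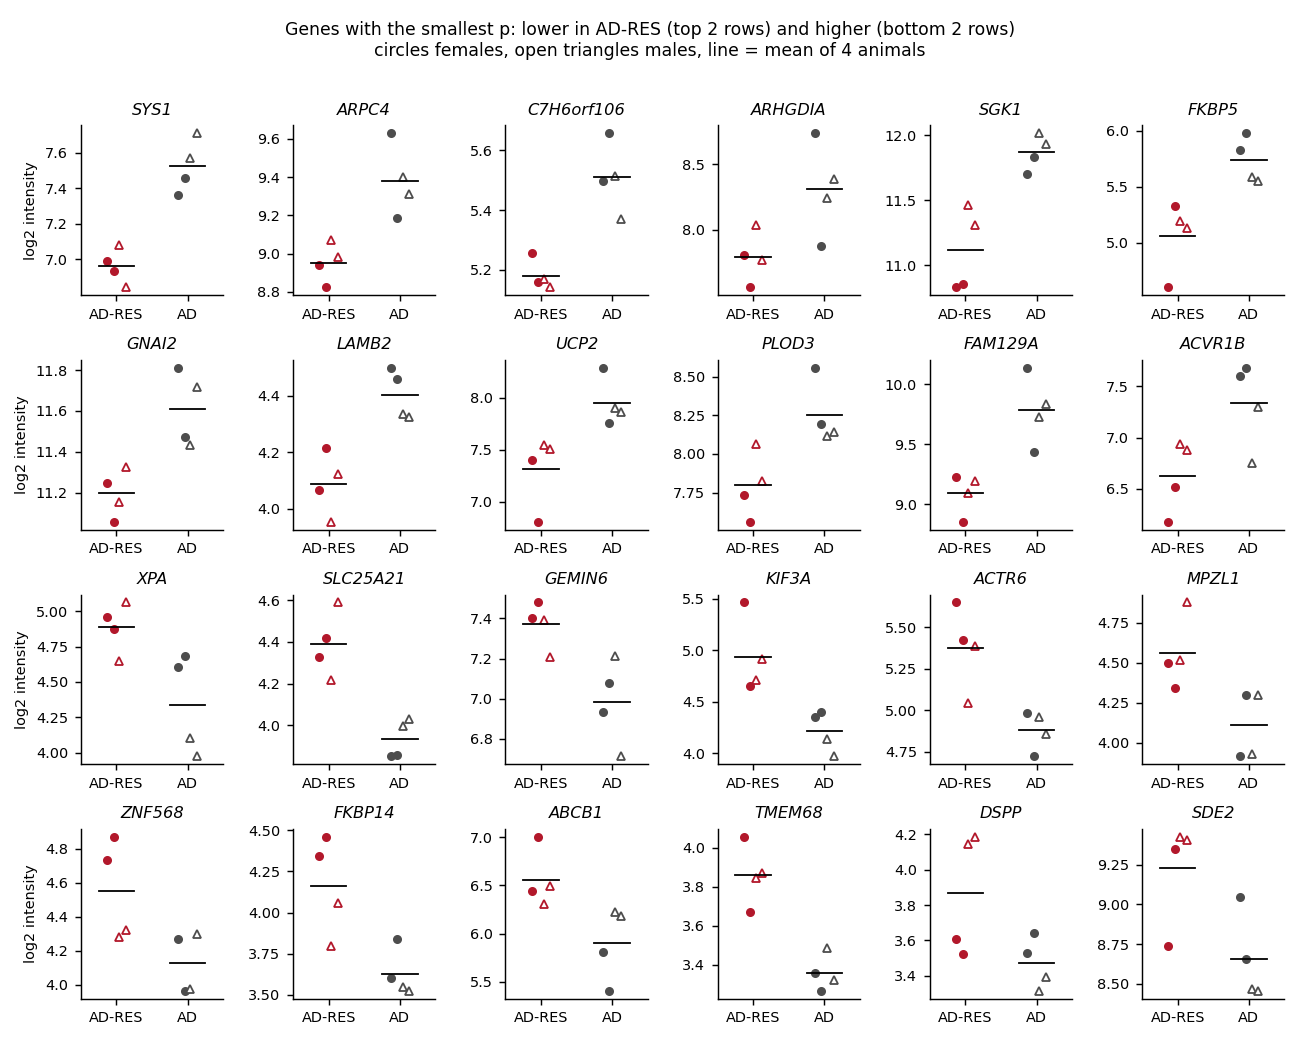
Log2 intensity of the 24 genes with the smallest p, AD-RES (red) to the left of AD (grey) in each panel; circles are females, open triangles males and the line is the mean of 4 animals. In SYS1, SGK1 and FKBP5 every AD-RES animal is below every AD animal, and in SLC25A21 and KIF3A every AD-RES animal is above.

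The sexes were then compared, since each held only 2 animals per group. Females and males were estimated from one fit of 12 diet and sex groups, so their spread came from all 24 arrays. In females 4 of 17999 probe sets (0.0222%) were called, all 4 lower, and in males 7 (0.0389%), all 7 higher. A direct test of the difference between the sexes called 0 (0%), with a smallest limma adjusted p of 0.0728 and 2195 probe sets at an unadjusted p under 0.05. With the 2 AD-RES males averaged into 1, 0 probe sets were called in females, males or their difference. With 1 array left out the female count was 0 without any of the 4 AD-RES animals or AD animal 2, 1 without AD animal 1 and 2 without AD animal 3 or 4. The male count was 0 without any of the 4 AD-RES animals or AD animal 3 or 4, and 6 without AD animal 1 or 2. With array weights 11 were called in females, 80 in males and 66 in the difference between the sexes, and with the 3'/5' ratio as a covariate 40 were called in that difference. With the mean of the erythroid list described below as a covariate 0 were called in females, with a smallest limma adjusted p of 0.0664, and 2 in males.

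In the females the called genes were ACVR1B, MFSD7 and CEBPD, with 1 probe set that has no gene name here. ACVR1B fell by 1.29 ± 0.19 (SE; limma adjusted p = 0.0462), with the values given above. MFSD7, a transporter-family gene, was at 6.87 and 6.69 in AD-RES females, against 8.07 and 7.90 in AD females, and it fell by 1.21 ± 0.19 (limma adjusted p = 0.0462). CEBPD, a transcription factor of the acute phase and of monocytes, was at 9.90 and 10.15 in AD-RES females, against 11.01 and 11.09 in AD females, and it fell by 1.02 ± 0.16 (limma adjusted p = 0.0462). Other CEBPD probe sets gave female differences of -0.53 and -0.71 and did not pass. With the 2 AD-RES males averaged the limma adjusted p was 0.0945 for ACVR1B, 0.0969 for MFSD7 and 0.0945 for CEBPD. In males the same genes differed by -0.12, -0.29 and -0.17, and the difference between the sexes had limma adjusted p of 0.15, 0.209 and 0.187.

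In the males the called genes were KMO, CCNDBP1, DCAF12 and DSPP, with 3 probe sets that have no gene name here. KMO, an enzyme of tryptophan breakdown along the kynurenine path, was at 8.50 and 8.47 in AD-RES males, against 6.93 and 6.66 in AD males, and it rose by 1.69 ± 0.24 (limma adjusted p = 0.0305). AD-RES females stood at 6.44 and 6.93, against 6.60 and 7.19 in AD females. CCNDBP1, a partner of cyclin D, was at 9.75 and 9.95 in AD-RES males, against 8.80 and 8.47 in AD males, a rise of 1.21 ± 0.20 (limma adjusted p = 0.0367). DCAF12, a substrate receptor of a ubiquitin ligase, rose by 0.92 ± 0.14 and DSPP, which encodes dentin proteins, by 0.81 ± 0.12 (limma adjusted p = 0.0305 each). DSPP was dim: AD-RES males were at 4.14 and 4.18, against 3.31 and 3.39 in AD males, and the probe sets left out as dimmest had means under 3.57. The female values of these genes differed by -0.21, -0.28, -0.36 and -0.02. With the AD-RES males averaged the limma adjusted p was 0.46 for KMO, DCAF12 and DSPP and 0.501 for CCNDBP1.

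Lists of genes for cell types and pathways were then read against all 6033 genes, of which 45.4% were higher in AD-RES and whose median difference was -0.02. At an unadjusted p under 0.05, 1.59% of all genes were higher and 3.63% lower with both sexes together. The shares were 3.7% higher and 6.96% lower in females, and 4.14% higher and 5.22% lower in males. No list member passed the limma threshold in both sexes together. Some genes stood on several lists, so the counts of different lists are not separate results. NFKBIA was on the glucocorticoid and inflammatory lists and the panel described below. ICAM1 was on the inflammatory and adhesion lists and that panel, and SOD2 and HMOX1 were on the antioxidant list and that panel.

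Monocyte and macrophage markers had lower values in the AD-RES females than in the AD females, and values on both sides of 0 in the males. Of 22 measured genes, 21 were lower and 1 higher with both sexes together (median -0.48, or -0.68 with the AD-RES males averaged, 6 at an unadjusted p under 0.05). In females all 22 were lower (median -1.07, 15 at an unadjusted p under 0.05), and in males 9 were lower and 13 higher (median 0.10). The mean of the list, relative to all 24 arrays, was -0.79, -0.57, 0.21 and 0.35 in AD-RES, against 0.29, 0.40, 0.16 and 0.27 in AD. The AD-RES females were thus below each AD animal and the AD-RES males within the range of AD, while the 16 arrays of other groups ran from -0.57 to 0.59. The difference between the sexes in this list was not tested. CEBPD, called in females above, is itself on this list. With the list mean as a covariate 38 probe sets were called in females, against 4 without it.

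Among its members, SPI1, the master transcription factor of myeloid cells, was at 7.25, 6.88, 7.95 and 8.17 in AD-RES, against 8.80, 8.04, 8.33 and 8.55 in AD (difference -0.87 ± 0.27). TLR2, a receptor for bacterial lipoproteins, was at 7.72, 8.01, 8.53 and 8.55 in AD-RES, against 9.21, 9.10, 8.68 and 9.35 in AD (difference -0.88 ± 0.33). All 4 AD-RES values of TLR2 were below those of AD, and for SPI1 the groups overlapped by 1 AD-RES male. CEBPB, a transcription factor of inflammatory macrophages, differed by -0.73 ± 0.24. CD14, the co-receptor for endotoxin, differed by -0.99 ± 0.77, with 4.65 to 6.60 in AD-RES overlapping 5.57 to 8.16 in AD. Of the other cell type lists, dendritic cell markers were lower in 6 of 6 genes (median -0.38), among them IRF8, a factor of dendritic and monocyte lineages, at -0.58 ± 0.21. T cell markers were higher in 11 of 14 (median 0.25), with a median of 0.46 in females and 0.05 in males. CD27, a co-stimulatory receptor, was at 0.71 ± 0.46, while CTLA4, a brake on T cell activation, was at -0.42 ± 0.19 with no overlap of the groups. CTLA4 was dim, with a mean of 4.07 over all arrays. Cytotoxic and natural killer markers were lower in 4 of 7 (median -0.12), with PRF1, perforin, at -0.22 ± 0.09, and B cell markers in 5 of 6 (median -0.25), with BTK, a kinase of B cell receptor signalling, at -0.29 ± 0.14.

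**Figure D4:**
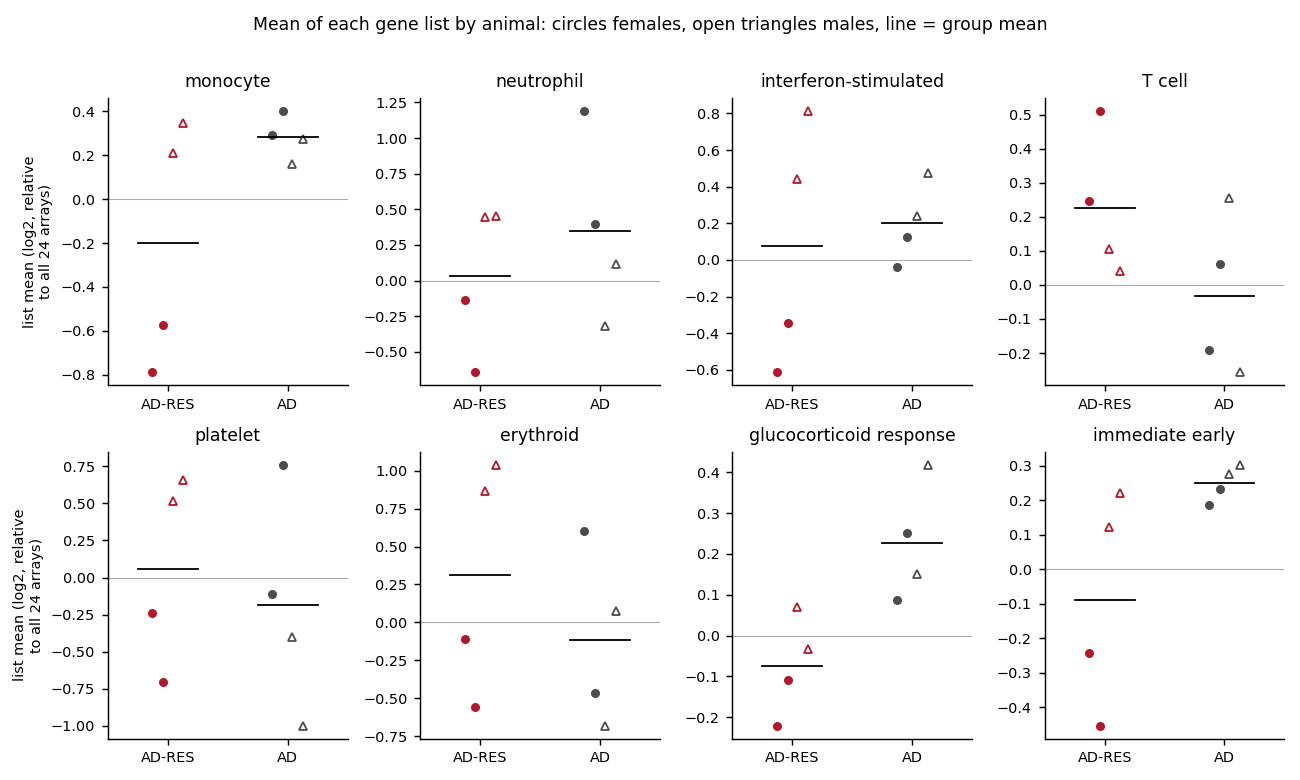
Mean of 8 gene lists in each animal, relative to the mean of all 24 arrays (log2), AD-RES (red) left of AD (grey); circles are females, open triangles males, lines group means. Monocyte means of the 2 AD-RES females are -0.79 and -0.57, below the 4 AD animals, whereas the erythroid means of the AD-RES males, 0.87 and 1.04, are above the other 6 animals. Erythroid means of the arrays of other groups, not drawn, ran from -1.03 to 1.73.

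Markers of platelets and of red cell precursors, which a density gradient leaves in part, differed most in the males. Platelet markers were higher in 8 of 12 genes (median 0.30, or 0.04 with the AD-RES males averaged), with a median of -0.75 in females, where all 12 were lower, and 1.71 in males. The list mean was -0.24, -0.71, 0.52 and 0.66 in AD-RES, against -0.11, 0.76, -0.40 and -1 in AD. The arrays of other groups ran from -1.24 to 1.51 in this mean. PPBP, a platelet chemokine, differed by 2.54 in males and by -0.65 in females, and CAVIN2 and SELP, the platelet adhesion molecule P-selectin, by 2.41 and 1.67 in males. With the AD-RES males averaged the errors of PPBP, CAVIN2 and SELP in males were 1.07, 0.87 and 0.70. THBS1, thrombospondin, was an exception at -0.90 ± 0.36, with a male value of -0.39. Erythroid markers were higher in 6 of 8 genes (median 0.49, or 0.28 with the AD-RES males averaged; -0.39 in females and 1.38 in males), and the list mean was -0.11, -0.56, 0.87 and 1.04 in AD-RES, against 0.60, -0.47, -0.68 and 0.07 in AD. For the erythroid list the arrays of other groups ran from -1.03 to 1.73, so the AD-RES males lay within their range. ALAS2, the first enzyme of heme synthesis in red cells, was at 13.20 and 13.32 in AD-RES males, against 9.81 and 11.59 in AD males. HBM and HBE1, globin genes, differed by 2.38 and 2.28 in males (SE 0.98 and 0.81 with the averaged pair). The erythroid mean as a covariate lowered the counts of calls in both sexes, as given above, and the part of platelets was not tested. Nor was the difference between the sexes in these lists.

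Neutrophil markers, whose cells a gradient is meant to remove, were lower in 7 of 8 genes (median -0.22; -0.89 in females, all 8 lower, and 0.33 in males). CHI3L1, a secreted chitinase-like protein, was at 5.49, 6.77, 7.08 and 7.20 in AD-RES, against 9.11, 7.96, 7.80 and 7.47 in AD (difference -1.45 ± 0.48). ARG1, arginase, was at 9.46, 8.71, 11.43 and 11.81 in AD-RES, against 10.22, 9.46, 8.48 and 9.29 in AD. It differed by 2.73 in males (limma adjusted p = 0.0602, and 0.653 with the averaged pair) and by -0.76 in females. Interferon-stimulated genes were lower in 17 of 24 (median -0.17; -0.44 in females and 0.30 in males), and IRF7 and MX2, antiviral genes, stood at -0.46 and -0.53 while GBP2, a guanylate-binding protein, was at 0.29. Inflammatory cytokines and NF-kB targets were lower in 17 of 23 (median -0.21), and TNFSF10, the death ligand TRAIL, was at 0.81 ± 0.41.

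The glucocorticoid response genes were lower in 15 of 17 (median -0.36, 6 at an unadjusted p under 0.05), with medians of -0.43 in females and -0.21 in males. The list mean was -0.22, -0.11, 0.07 and -0.03 in AD-RES, against 0.09, 0.25, 0.15 and 0.42 in AD, so no AD-RES animal reached the lowest AD animal. Besides SGK1, this list held PER1, a clock gene, at -0.82 ± 0.26, and GLUL, glutamine synthetase, at -0.59 ± 0.22. PER1 was at 9.82, 10.16, 9.63 and 9.49 in AD-RES, against 10.69, 10.64, 10.08 and 10.98 in AD, with an overlap in 1 animal. Immediate early genes, which switch on within minutes of a stimulus, were lower in 21 of 25 (median -0.36; -0.66 in females and -0.07 in males). Their list mean was -0.24, -0.45, 0.12 and 0.22 in AD-RES, against 0.19, 0.23, 0.28 and 0.30 in AD, with an overlap by 1 AD-RES male. Among them FOSL2, a partner of AP-1, was at -1.09 ± 0.52, ZFP36, which destabilises cytokine messages, at -0.50 ± 0.21, SOCS3, a brake on cytokine signalling, at -0.46 ± 0.16 and ATF3, a stress factor, at -0.60 ± 0.30. SOCS3 was dim, with a mean of 3.86 over all arrays. The monocyte list was also lower in the females. With its mean as a covariate the differences were -0.50 for SGK1, -0.42 for FKBP5, -0.61 for PER1, -0.44 for GLUL, -0.33 for FOSL2, -0.32 for ZFP36, -0.30 for SOCS3 and -0.19 for ATF3, all smaller and of the same sign.

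A panel of genes often studied with resveratrol or atherosclerosis had 18 measured members of 25, 6 higher and 12 lower (median -0.53, 4 at an unadjusted p under 0.05). In females 15 of 18 were lower (median -0.92, 7 at an unadjusted p under 0.05), and in males 12 (median -0.08; at an unadjusted p under 0.05, 0 lower and 1 higher). The antioxidant enzyme SOD2 was at 10.22, 10.26, 10.63 and 10.68 in AD-RES, against 11.31, 11.10, 10.86 and 11.04 in AD (difference -0.63 ± 0.20), with no overlap. NFKBIA, the NF-kB inhibitor that NF-kB itself induces, was at 10.51, 10.66, 11.25 and 11.25 in AD-RES, against 11.34, 11.59, 11.53 and 11.99 in AD (difference -0.69 ± 0.24), also with no overlap. Among inflammatory genes, TNF differed by -0.56 ± 0.30, IL1B by -0.89 ± 0.55, CXCL8 by -0.91 ± 0.91, PTGS2 by -0.84 ± 0.44, the adhesion molecule ICAM1 by -0.71 ± 0.31, TLR4, the endotoxin receptor, by -0.42 ± 0.27 and the anti-inflammatory cytokine IL10 by -0.51 ± 0.35. IL6 at 0.04 ± 0.20 and CCL2 at 0.00 ± 0.35 were near 0, with levels close to the dim end of the array. With the monocyte list mean as a covariate the differences were -0.29 for SOD2, -0.34 for NFKBIA, -0.13 for TNF, -0.10 for IL1B, -0.04 for PTGS2 and -0.20 for ICAM1, and CXCL8, TLR4 and IL10 changed sign to 0.32, 0.08 and 0.14. TLR4 is itself a member of the monocyte list, so its change with that covariate is partly built in.

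Of the antioxidant and metabolic genes in the panel, HMOX1, heme oxygenase, was at 7.37, 8.01, 8.76 and 8.67 in AD-RES, against 8.62, 9.05, 8.61 and 9.08 in AD (difference -0.64 ± 0.30, or -0.11 with the monocyte covariate; -1.14 in females and -0.13 in males). NQO1, a quinone reductase and NRF2 target, was at 6.63, 6.49, 8.30 and 8.25 in AD-RES, against 7.08, 7.76, 7.04 and 6.69 in AD. It thus differed by -0.86 ± 0.59 in females and by 1.41 ± 0.59 in males, and neither the sexes nor their difference passed (limma adjusted p = 0.281 for the difference, and 0.588 with the averaged pair). GPX1, glutathione peroxidase, differed by 0.11 ± 0.13, PRKAA1, the catalytic subunit of AMPK, by 0.19 ± 0.17, ABCA1, the cholesterol exporter, by 0.23 ± 0.31 and TGFB1 by -0.19 ± 0.23.

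Other lists held genes close to resveratrol's studied targets. NRF2 targets and antioxidant enzymes were higher in 9 and lower in 19 of 28 (median -0.06, against -0.02 over all genes). Of the 28, 4 were lower at an unadjusted p under 0.05, as were 3.63% of all genes. With no overlap 3 were lower, as were 2.04% of all genes, and 0 passed the limma threshold. Among the 4 were PGD, of the pentose phosphate path, at -0.61 ± 0.20 and GSR, glutathione reductase, at -0.34 ± 0.12. Sirtuins, AMPK subunits and FOXO factors were higher in 9 of 15 (median 0.02), and SIRT3, a mitochondrial sirtuin, was at 0.24 ± 0.13. Genes of cholesterol efflux, uptake and lipid storage were lower in 13 of 15 (median -0.14), with NR1H3, the sterol receptor LXR alpha, at -0.37 ± 0.22 and PLIN2, which coats lipid droplets, at -0.35 ± 0.23. Sterol synthesis genes were lower in 10 of 16 (median -0.07), and INSIG1, which holds back the sterol sensor, was at -0.64 ± 0.29.

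Fatty acid genes were lower in 19 of 31 (median -0.01), and the acyl-CoA synthetases differed in sign, ACSL1 at -0.52 ± 0.18, ACSL4 at -0.27 ± 0.14 and ACSL3 at 0.44 ± 0.18. Leukocyte adhesion and chemokine receptor genes were lower in 13 of 17 (median -0.16, 4 at an unadjusted p under 0.05), with CXCR4, a homing receptor, at -0.53 ± 0.21, the integrin chain ITGB2 at -0.40 ± 0.16 and S1PR1, the receptor for exit from lymph nodes, at -0.34 ± 0.15. CXCR4 and S1PR1 differed by -0.97 and -0.74 in males and by -0.09 and 0.05 in females, and the difference between the sexes did not pass (limma adjusted p = 0.298 and 0.194, and 0.59 and 0.537 with the averaged pair).

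Lists of cell machinery gave small medians. Kinesins and intraflagellar transport were higher in 10 of 13 (median 0.16), with IFT172 at 0.33 ± 0.13. Proteasome subunits were higher in 21 of 33 (median 0.03), with PSMD12 at -0.40 ± 0.16. MHC class I presentation genes were lower in 8 of 12 (median -0.03), with the immunoproteasome subunit PSMB10 at 0.31 ± 0.11. Actin nucleation genes were lower in 22 of 30 (median -0.07), among them WAS, which activates Arp2/3, at -0.36 ± 0.14. Golgi and vesicle traffic genes were lower in 24 of 40 (median -0.03), with the small GTPases ARF6 at -0.35 ± 0.13 and RAB7A at -0.21 ± 0.10, and the heat shock list was lower in 15 of 27 (median -0.02), with the co-chaperone DNAJA4 at 0.40 ± 0.16 and HSPA8 at -0.26 ± 0.10. Oxidative phosphorylation genes were lower in 29 of 44 (median -0.04).

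**Figure D5:**
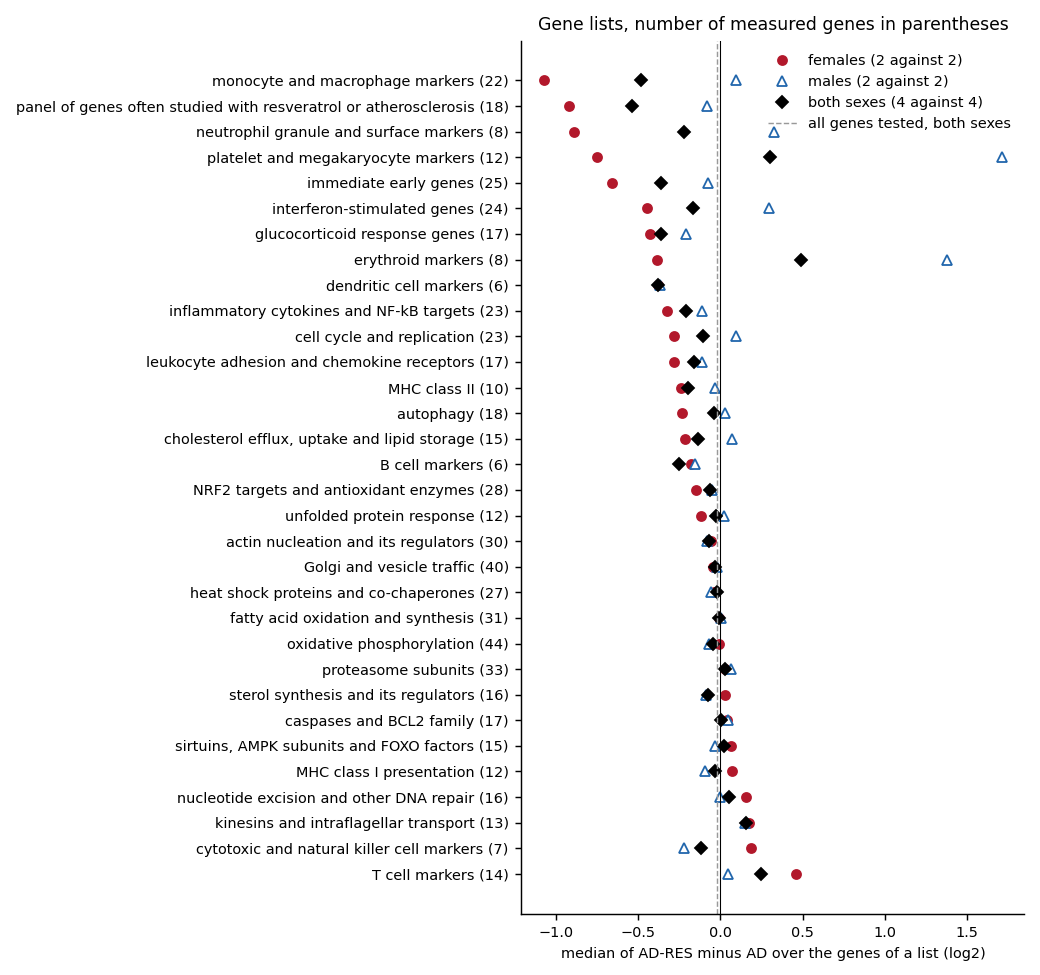
Median AD-RES minus AD difference (log2) of each gene list in females (red circles), males (open triangles) and both sexes (black diamonds), with the number of measured genes in parentheses and the median of all genes as a dashed line. Platelet and erythroid medians lie at 1.71 and 1.38 in males and at -0.75 and -0.39 in females, and the monocyte median at -1.07 in females and 0.10 in males.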

How the data were processed

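Affymetrix porcine arrays measured mononuclear blood cell RNA of 24 pigs, 1 animal each. The deposited values are linear intensities, 1 per probe set and array; the submitters' processing notes name RMA and GCOS, with roles and versions not given in the sources used here. Intensities were converted to log2. From 24123 probe sets, 124 controls were set aside and the lowest 25% by mean (under 3.57) were left out, which left 17999, of which 8540 had 1 gene symbol in the platform annotation, 168 several and 9291 none. Models of 6 groups and sex, or of 12 diet and sex groups, were fitted over the whole series (limma 3.58.1, R 4.3.3), using two-sided tests, Benjamini and Hochberg adjustment over all probe sets and a threshold of 0.05. Among probe sets with 1 symbol, the 12 genes with the smallest p in each direction and genes called in 1 sex could be named. So could up to 4 smallest-p members of each list and the panel. Of these, 94 were named and followed under the alternatives. CD3E and CD163 were given only as markers of the labelled cells. The members and lists were chosen with earlier results of these data known. Lists used the probe set with the highest mean, and 32 lists with at least 5 measured genes were described. The method was tested on simulated data. The number of arrays limits the precision, and p-values measure the spread between animals.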

Additional observations from a re-analysis of the deposited data

Results flagged for a closer look

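In 160 checks of 1 animal against the other 3 of its group, 6 values lay far from the rest, where chance gives about 1 in 20. SDE2 was at 8.741 in AD-RES animal 1, below its group. PRKAA1 was at 6.263 in AD-RES animal 3, above the others. ABCA1 was at 5.91 in AD-RES animal 2, below the others. GPX1 was at 13.1 and PTGS2 at 4.626 in AD animal 4, both below the others. The mean of the panel list was 0.0595 in AD animal 1, below the other AD animals.

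In 4 of 32 lists each AD-RES female lay on one side of the AD females in the list mean. In these lists each AD-RES male lay on the other side of the AD males. How many lists would do so by chance was not estimated, and the male side rests on the closely alike pair of AD-RES arrays. The male minus female difference, taken gene by gene, had a median over the list of 2.56 for platelet markers, 1.93 for neutrophil markers, 0.188 for NRF2 targets and antioxidant enzymes and 0.256 for autophagy genes. These differences between the sexes were not tested.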

How the results depend on the processing

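With both sexes together 0 probe sets were called under each of the 12 alternatives and with each array left out. For females, where 4 were called, 20 were called with only the 8 arrays in the fit, 11 with array weights, 38 with the monocyte list mean as a covariate, 0 with the erythroid list mean as a covariate and 0 with AD-RES animals 3 and 4 averaged into 1; leaving out an array gave 0 to 2. For males, where 7 were called, the counts were 2 with the lowest 50% of probe sets left out, 80 with array weights, 22 with the 3'/5' ratio as a covariate, 14 with the monocyte covariate, 2 with the erythroid covariate and 0 with the averaged pair; leaving out an array gave 0 to 6. For the difference between the sexes, where 0 were called, 2 were called with the lowest 50% left out, 66 with array weights, 2 with a trended and robust variance prior and 40 with the 3'/5' ratio, and 0 to 6 with an array left out. The causes were not tested. The erythroid covariate and the averaging were chosen after seeing the data.

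Of the 94 genes named, 82 kept 1 direction under all alternatives and 0 passed 0.05 in any with both sexes together. With the monocyte covariate the difference turned to 0.317 for CXCL8, 0.0775 for TLR4, 0.138 for IL10, 0.0293 for IRF7, 0.105 for MX2 and 0.0266 for NR1H3. With the erythroid covariate it turned to -0.0223 for HBE1, -0.016 for IL6 and -0.0588 for CCL2. TLR4 is a member of the monocyte list and HBE1 of the erythroid list, so these changes are partly built in. NQO1 was at -0.049 with the averaged pair, and CCL2 at -0.0976 with it, -0.00641 with quantile normalization, -0.0149 with median centring and -0.00629 with the 3'/5' ratio. With an array left out NQO1 ran from -0.0587 to 0.62, GPX1 from -0.0387 to 0.187, ABCA1 from -0.0398 to 0.465, IL6 from -0.0896 to 0.124 and CCL2 from -0.125 to 0.131. Of 32 list medians, 12 changed sign when an array was left out, and 15 had opposite signs in females and males. No paired analysis was possible because the pig numbers in the labels are shared by no 2 groups.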
